A study of Homo sapiens with 16 samples.

Results

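QPRT, NAMPT, NAPRT, NMNAT1, NMNAT2, NMNAT3, NADSYN1 and NNMT encode enzymes that make NAD or divert its precursor nicotinamide, and their mRNA levels were measured in SW480 cells. SW480 is an established human colorectal cancer cell line that carries a truncated APC protein and has constitutively active Wnt signalling. They are 8 of the 19775 genes on the array that a probe set names alone, and all probe sets annotated to exactly one of them were taken, 24 of 54675. The set was chosen by measured values, the log2 differences between these groups on these arrays, QPRT's among them, so their levels and differences are given as a description with no test.

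NAD is made in human cells by several routes. In the de novo route, tryptophan is degraded through kynurenine to quinolinate, which QPRT joins to phosphoribosyl pyrophosphate. In the salvage route, NAMPT does the same with nicotinamide, and in the Preiss-Handler route NAPRT does so with nicotinic acid. The NMNAT enzymes add the adenylate group to the resulting mononucleotides, and NADSYN1 then amidates the acid form of the dinucleotide to NAD. NNMT methylates nicotinamide with S-adenosylmethionine and so takes it out of the salvage route.

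Each of the 4 groups had 4 arrays of total RNA, labelled as biological replicates A to D, with separate cultures not stated. In siTAZ cells, which stably carried an empty vector, an siRNA against TAZ (gene symbol WWTR1) had been transfected. The sibcat cells carried the same empty vector and received an siRNA against beta-catenin (CTNNB1). The APC cells stably carried a wild-type APC vector and received a control siRNA. The siGFP cells carried the empty vector and received the control siRNA, so every group had a stable vector and an siRNA transfected with RNAi MAX. The labels give 1 siRNA condition per target and do not say whether the APC cells are a pool or a clone. Values are log2 levels from RMA, so a difference of 1 is a 2-fold change, and the median probe set lay at 5.10, which is used below as the mark of a dim signal.

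The targets were checked first. WWTR1 averaged 6.91 in siTAZ cells against 10.28 in siGFP cells, and CTNNB1 averaged 10.16 in sibcat cells against 13.12 in siGFP cells. WWTR1 was also higher than in siGFP cells by 0.70 in sibcat (limma, adjusted p = 7.45e-07) and by 0.73 in APC cells (5.05e-07), and CTNNB1 differed by -0.38 in APC cells (0.0126). The brightest APC probe set differed by 0.08 between APC and siGFP cells (limma, adjusted p = 0.709), while 2 of the 5 APC probe sets were higher in APC cells, by 0.41 and 1.11; whether the probes lie in the part that the vector carries is not known here. Of 8 colon epithelium markers, 7 lay above the median probe set level in all groups and KRT20 did not. Of 3 leukocyte markers none did, and of 6 fibroblast and endothelium markers COL1A1 and PECAM1 did. The level of the ACTB 3' control probe set minus that of the 5' one, which is larger in more degraded RNA, averaged 2.57 ± 0.39 in siTAZ, 2.30 ± 0.24 in sibcat, 2.08 ± 0.32 in APC and 2.05 ± 0.16 in siGFP cells (SD, n = 4 each).

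The start regions of QPRT and NMNAT2 are shown because these are the 2 members whose mRNA was far lower in the cells given wild-type APC. Both are RefSeq sequences of GRCh38.p14, from 250 bases before to 50 after the gene's start, with CpG dinucleotides in capitals. The QPRT window is chr16:29678758-29679057 on the plus strand and the NMNAT2 window is chr1:183418331-183418630 on the minus strand.
QPRT: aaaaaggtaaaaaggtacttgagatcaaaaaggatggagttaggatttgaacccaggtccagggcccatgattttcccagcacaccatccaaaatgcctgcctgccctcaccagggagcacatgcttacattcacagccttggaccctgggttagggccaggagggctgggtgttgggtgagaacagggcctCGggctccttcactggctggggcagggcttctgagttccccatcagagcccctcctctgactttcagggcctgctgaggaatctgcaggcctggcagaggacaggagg
NMNAT2: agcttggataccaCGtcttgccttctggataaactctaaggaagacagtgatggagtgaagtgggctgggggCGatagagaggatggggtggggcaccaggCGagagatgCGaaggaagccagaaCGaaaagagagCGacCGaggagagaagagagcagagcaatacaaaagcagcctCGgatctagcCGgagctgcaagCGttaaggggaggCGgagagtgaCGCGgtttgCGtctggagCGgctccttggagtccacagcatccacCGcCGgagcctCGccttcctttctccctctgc
The QPRT window held 1 CpG and 56.7% G and C, and the NMNAT2 window held 18 CpGs and 58.3%. Over the 35116 promoter windows of the table the medians were 14 CpGs and 58.7%. Neither window held CTTTGAT, the core of the sequence bound by TCF/LEF factors, on either strand, and 2.62% of all windows did. Neither held GGAATG, the core bound by the TEAD partners of TAZ, on either strand, against 14.0% of all windows; the motifs do not overlap each other. A second NMNAT2 window, at chr1:183304825-183305124, held 1 GGAATG match, and a second QPRT window, at chr16:29678930-29679229, held neither motif. Of the 8 genes, 6 matched the table, with 9 windows in all.

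QPRT mRNA, for the enzyme that commits quinolinate to NAD, was nearly lost from the array signal of APC cells and was higher than in siGFP cells after either siRNA. On probe set 242414_at the 4 arrays read 9.24, 9.11, 8.98 and 8.98 in siTAZ cells. They read 9.30, 9.30, 9.05 and 9.05 in sibcat cells. In APC cells they read 4.96, 5.36, 5.30 and 5.08, against 8.32, 8.41, 8.09 and 8.27 in siGFP cells. All APC arrays lay near the median probe set level, and no array of siTAZ, sibcat or APC cells overlapped those of siGFP cells. The difference from siGFP cells was 0.81 in siTAZ, 0.90 in sibcat and -3.10 in APC cells (SE 0.101 each), which is 1.75-fold and 1.87-fold higher and 8.56-fold lower. Among the 19775 genes, each taken by its brightest probe set, QPRT had the 30th lowest difference in APC cells, the 307th highest in siTAZ cells and the 432nd highest in sibcat cells.

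The other QPRT probe set, 204044_at, gave the same order. It read 8.72, 8.92, 8.78 and 8.82 in siTAZ cells and 9.00, 8.91, 8.85 and 8.97 in sibcat cells. It read 5.43, 5.05, 5.0 and 5.05 in APC cells, against 8.03, 8.02, 7.93 and 8.01 in siGFP cells. Its differences from siGFP cells were 0.81, 0.94 and -2.87 (SE 0.083 each) in siTAZ, sibcat and APC cells. Both probe sets read the same labelled RNA and so are not separate replicates. The residual signal in APC cells sat at the dim end, where log2 differences are compressed.

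The order of QPRT levels was thus sibcat, siTAZ, siGFP and APC on both probe sets. The neighbours siTAZ and sibcat overlapped, with siTAZ minus sibcat at -0.10 on 242414_at, while the other neighbours did not overlap. The widest gap was between APC and sibcat cells, at -4.00 on 242414_at, or 16.0-fold, the 2nd lowest of all genes in that comparison. Fewer cells holding the transcript and less transcript per cell cannot be told apart in these bulk samples. Replicates A and B tended to deviate together, and so did C and D, and the QPRT differences were close in both pairs. From A and B alone they were 0.81, 0.94 and -3.21 in siTAZ, sibcat and APC cells, and from C and D alone 0.80, 0.87 and -2.99. With the ACTB 3' minus 5' value as a covariate the siTAZ difference of 242414_at was 0.66, the sibcat difference 0.83 and the APC difference -3.10.

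**Figure D1:**
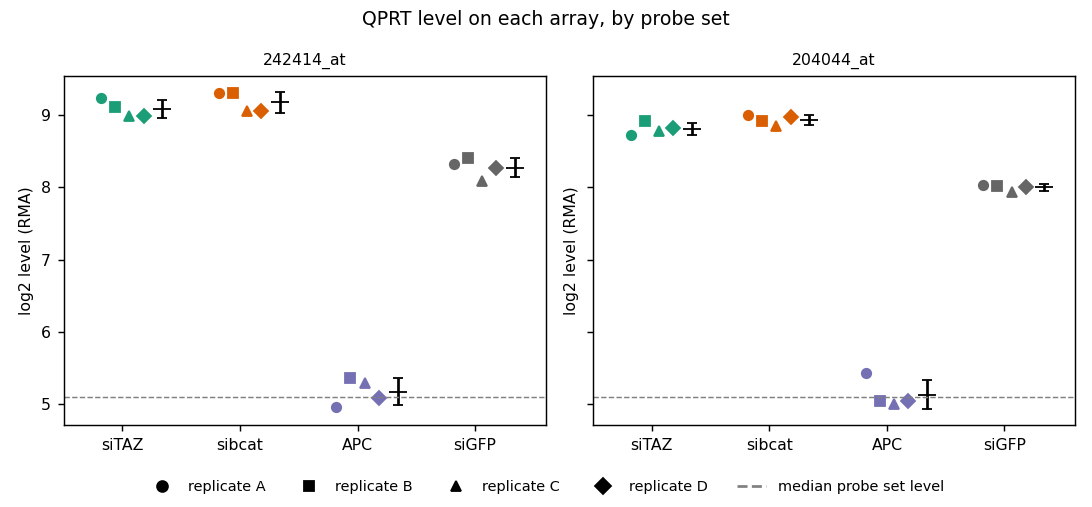
Log2 level (RMA) of QPRT on each array for its 2 probe sets, with groups along the horizontal axis, one symbol per replicate letter, and the mean ± SD (n = 4) in black beside the symbols. The APC arrays sit between 4.96 and 5.43, near the dashed median probe set level of 5.10, and the siTAZ and sibcat arrays all sit above the siGFP arrays.

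The following 6 genes had the pattern most like QPRT, by root mean square distance over the 3 differences from siGFP among 13010 genes compared. GALC, which encodes the lysosomal galactosylceramidase, was nearest at a distance of 0.42, with differences of 0.57, 0.27 and -3.38 in siTAZ, sibcat and APC cells. TMEM117 followed at 0.44 and SH3BGRL at 0.46. SH3BGRL differed by 0.77 in siTAZ, 0.86 in sibcat and -2.30 in APC cells. SYT13 at 0.48, SPAG4 at 0.49 and AUTS2 at 0.52 were next. In APC cells GALC averaged 3.10 and SH3BGRL 3.07, both below the median probe set level. These distances rest on 4 group means and are a description.

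NAMPT, the rate-limiting enzyme of nicotinamide salvage, had 4 probe sets, and they did not give one direction. Its brightest, 217739_s_at, read 11.25, 11.19, 11.20 and 11.24 in siTAZ cells, 11.33, 11.36, 11.52 and 11.36 in sibcat cells and 11.11, 11.29, 11.51 and 11.34 in APC cells, against 11.20, 11.04, 11.27 and 11.32 in siGFP cells. The siTAZ and APC arrays overlapped those of siGFP cells, and the sibcat arrays lay just above them, at a difference of 0.19. Probe set 217738_at read 10.54, 10.66, 10.69 and 10.68 in APC cells against 10.23, 10.18, 10.33 and 10.31 in siGFP cells. That is 0.38 higher (SE 0.056), with no overlap, while siTAZ differed by -0.14 and sibcat by 0.15.

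Probe set 243296_at of NAMPT was higher in all treated groups. It read 8.69, 8.57, 8.24 and 8.38 in siTAZ cells, 8.77, 8.77, 8.54 and 8.54 in sibcat cells and 8.48, 8.48, 8.22 and 8.24 in APC cells, against 8.09, 7.98, 7.80 and 7.94 in siGFP cells. No treated group overlapped siGFP cells, and the differences were 0.52, 0.70 and 0.40 (SE 0.102 each). On this probe set A and B stood above C and D in all 4 groups, by 0.17 to 0.32. On 1555167_s_at they stood below, by 0.21 to 0.49, and its differences from siGFP of -0.16, -0.02 and 0.23 all came from overlapping arrays. NAMPT thus had no direction common to its probe sets in siTAZ or sibcat cells, and in APC cells all 4 differences were above 0.

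NAPRT, the enzyme that takes in nicotinic acid, was highest in sibcat cells. Its probe set 226707_at read 8.12, 8.18, 8.07 and 8.08 in siTAZ cells and 8.78, 8.78, 8.83 and 8.79 in sibcat cells. It read 8.45, 8.35, 8.43 and 8.45 in APC cells, against 8.25, 8.22, 8.17 and 8.30 in siGFP cells. The sibcat arrays stood clear of all others, 0.56 above siGFP cells (SE 0.053) or 1.47-fold. APC cells came next at 0.19 above siGFP cells with no overlap, and siTAZ cells were last at -0.12, overlapping siGFP cells. Between the siRNA groups, siTAZ minus sibcat was -0.68. The other NAPRT probe set, 226708_at, stayed at or below 4.93 on every array and is too dim to be read.

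Among the enzymes that add the adenylate group, NMNAT2, the cytosolic and Golgi-associated enzyme known for keeping axons alive, was lower in APC cells on 3 of its 4 probe sets. On 209755_at the arrays read 7.34, 7.45, 7.29 and 7.26 in siTAZ cells and 7.08, 6.99, 7.02 and 7.09 in sibcat cells. They read 4.64, 4.49, 4.74 and 4.76 in APC cells, against 6.99, 6.79, 6.92 and 7.11 in siGFP cells. All APC arrays lay below the median probe set level, and the siTAZ arrays stood just above those of siGFP cells. The APC difference was -2.30 (SE 0.077), or 4.91-fold lower on a scale that is compressed at such dim levels, and the siTAZ difference was 0.38, while sibcat differed by 0.09 with overlap.

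The brightest NMNAT2 probe set, 1552712_a_at, read 8.08, 7.81, 7.35 and 7.49 in siTAZ cells and 7.69, 7.60, 7.38 and 7.39 in sibcat cells. It read 5.22, 5.92, 5.76 and 5.96 in APC cells, against 7.30, 7.42, 7.27 and 7.28 in siGFP cells. APC cells were 1.60 lower on this log2 scale (SE 0.158), the 196th lowest difference of all genes. The siTAZ difference of 0.37 was 0.59 from A and B and 0.15 from C and D. On 1556029_s_at the APC difference was -1.66, with -1.29 from A and B and -2.03 from C and D. That probe set put siTAZ cells at -0.21 and sibcat cells at -0.18, so the small siTAZ difference did not keep its sign across NMNAT2 probe sets. Its remaining probe set, 1562818_at, was dim in every group.

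The nuclear enzyme NMNAT1 and the mitochondrial NMNAT3 had small differences. The 3 NMNAT1 probe sets differed from siGFP by -0.27 to 0.17 over the 3 comparisons. NMNAT3 on 228090_at read 7.44, 7.56, 7.53 and 7.49 in siTAZ cells, 7.51, 7.45, 7.57 and 7.43 in sibcat cells and 7.62, 7.70, 7.80 and 7.73 in APC cells, against 7.75, 7.67, 7.67 and 7.91 in siGFP cells. Both siRNA groups lay below siGFP cells, by 0.25 and 0.26 (SE 0.066), and the APC arrays overlapped those of siGFP cells. On the other NMNAT3 probe set, 243738_at, the differences were -0.06 in siTAZ, -0.24 in sibcat and -0.07 in APC cells.

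NADSYN1, the amidating enzyme of the de novo and Preiss-Handler routes, was slightly higher in every treated group on its 2 brighter probe sets. On 218840_s_at the arrays read 7.86, 7.75, 7.74 and 7.78 in siTAZ cells, 7.83, 7.69, 7.80 and 7.94 in sibcat cells and 7.66, 7.57, 7.60 and 7.57 in APC cells, against 7.49, 7.47, 7.41 and 7.37 in siGFP cells. No treated array overlapped siGFP cells, at differences of 0.35, 0.38 and 0.17 (SE 0.061 each). The matching differences on 232946_s_at were 0.24, 0.44 and 0.19, again with no overlap. Both carry the suffix _s_at, which marks probes that match more than one transcript. The remaining 2 probe sets were dim, and one of them, 1565908_at, lay 0.36 lower in APC cells with overlapping arrays.

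NNMT, the nicotinamide methyltransferase, was the member that stood highest in APC cells relative to siGFP cells. Its probe set 202237_at read 5.31, 5.76, 5.31 and 5.63 in siTAZ cells and 5.55, 5.66, 5.82 and 5.72 in sibcat cells. It read 7.90, 7.51, 7.92 and 7.75 in APC cells, against 5.70, 5.42, 5.61 and 5.91 in siGFP cells. Only the APC arrays stood apart; the other 3 groups overlapped each other. The APC difference was 2.11 (SE 0.122), or 4.32-fold higher, the 73rd highest of all genes, while siTAZ differed by -0.16 and sibcat by 0.03.

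On 202238_s_at NNMT read 6.01, 5.83, 5.83 and 5.86 in APC cells against 4.26, 4.67, 4.66 and 4.65 in siGFP cells. All APC arrays were above the median probe set level and all siGFP arrays below it, at a difference of 1.32 (SE 0.091) or 2.50-fold. Its other probe set, 231559_at, was dim in all groups and lay 0.27 higher in APC cells. NNMT is also expressed by fibroblasts, but the labels name all samples as SW480, a cancer cell line, and no other cells. Among the 6 fibroblast and endothelium markers the group means ranged between 3.18 and 6.99. COL1A1 averaged 6.99 in APC and 6.91 in siGFP cells, and COL1A2 3.71 and 3.93. The part of other cells in the NNMT difference was not tested.

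**Figure D2:**
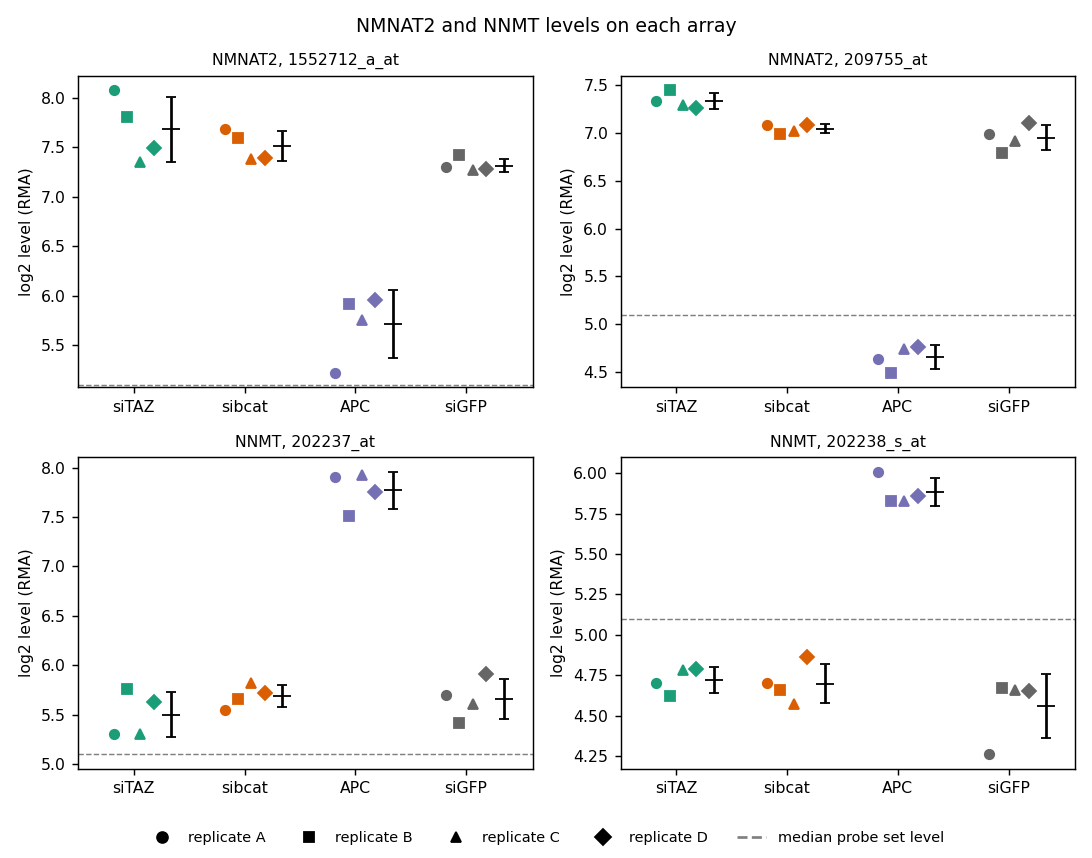
Log2 level (RMA) on each array for 2 probe sets of NMNAT2 (top) and 2 of NNMT (bottom), one symbol per replicate letter, with the mean ± SD (n = 4) in black and the median probe set level dashed; each panel has its own vertical range. The APC arrays are the lowest for NMNAT2 and the highest for NNMT, with no overlap with the other 3 groups.

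Over all 24 probe sets, 7 passed the threshold of the limma fit (adjusted p under 0.05) in siTAZ cells, 6 of them higher. In that comparison 20.3% of all probe sets passed. In sibcat cells 8 passed, 6 of them higher, against 25.6% of all probe sets, and in APC cells 12 passed, 6 higher and 6 lower, against 24.0%. Since the genes were picked with these contrasts known, nothing is read from these counts. The median difference of the 24 was -0.02 in siTAZ, 0.10 in sibcat and 0.10 in APC cells, beside 0.01, 0.00 and 0.02 over all probe sets. All 3 comparisons use the same siGFP arrays.

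**Figure D3:**
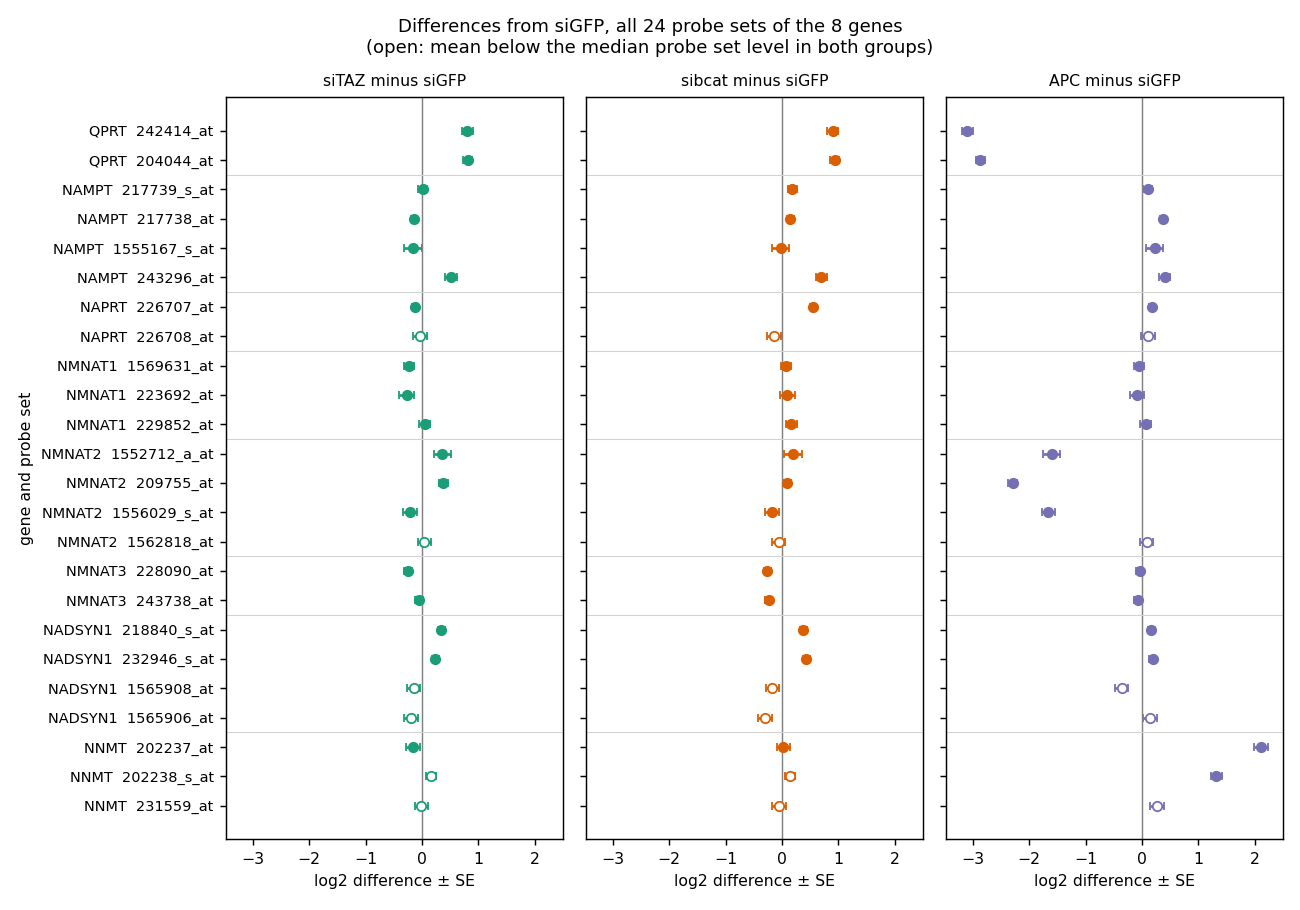
Log2 difference from siGFP (horizontal axis, ± SE from limma, n = 4 per group) for all 24 probe sets of the 8 genes (vertical axis) in siTAZ, sibcat and APC cells; open symbols mark probe sets dim in both groups. QPRT and NMNAT2 lie far to the left and NNMT to the right in the APC panel, and QPRT lies between 0.81 and 0.94 in the siTAZ and sibcat panels.

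A list of 67 related genes, of which 66 could be analysed, gives the rest of NAD metabolism by brightest probe set per gene. In siTAZ cells 8 rose and 17 fell, which is 12.1% and 25.8% of the 66, beside 17.0% and 13.1% of all 19775 genes. In sibcat cells 19 rose and 11 fell, or 28.8% and 16.7%, beside 18.6% and 17.3% of all genes. In APC cells 19 rose and 9 fell, or 28.8% and 13.6%, beside 16.6% and 17.1%. The median differences of the list were 0.00, -0.01 and 0.05 in siTAZ, sibcat and APC cells. Over all genes they were 0.01, 0.00 and 0.01. The shares of all genes given here are also the background for the counts of each smaller list below. In siTAZ cells, for one, 18.2% of the kynurenine pathway genes were called higher and 9.09% lower. Nothing is read from the counts of single lists.

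Of the 11 kynurenine pathway genes, not all lie on the route to QPRT. In siTAZ cells 2 were higher and 1 lower, and in sibcat cells 3 were higher and 1 lower. In APC cells 4 were higher and 2 lower. AADAT, an aminotransferase that draws kynurenine off to kynurenic acid, fell in all 3 treated groups. Its fall was 0.29 in siTAZ cells (limma, adjusted p = 0.00524), 0.72 in sibcat cells (4.51e-07) and 0.59 in APC cells (4.91e-06). TDO2, the liver form of the first enzyme, was called 1.47 higher in siTAZ cells (adjusted p = 2.10e-06), but it averaged below the median probe set level in both groups. The aminotransferases KYAT1 and KYAT3 of the same list did not go with AADAT throughout. KYAT1 rose by 0.48 in sibcat (limma, adjusted p = 1.55e-05) and 0.36 in APC cells (3.23e-04). It was not called in siTAZ cells, at 0.05. KYAT3 rose by 0.22 in siTAZ (0.0144) and 0.32 in sibcat cells (5.36e-04), and fell by 0.20 in APC cells (0.0216). AADAT, TDO2, KYAT1 and KYAT3 were chosen for mention after their values were seen.

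Of 13 genes of salvage, precursor entry and NADP formation, 1 rose and 4 fell in siTAZ cells, 3 rose and 4 fell in sibcat cells, and 1 rose and 3 fell in APC cells. SLC7A5, the light chain of a transporter that brings in tryptophan and other large neutral amino acids, read 8.41, 8.38, 8.46 and 8.39 in siTAZ cells against 10.71, 10.68, 10.70 and 10.63 in siGFP cells. Its difference was -2.27 (SE 0.049, limma, adjusted p = 8.87e-15), and it was 0.53 lower in sibcat cells (1.71e-07) and 0.36 higher in APC cells (1.46e-05). NNT, the mitochondrial transhydrogenase that uses NADH to make NADPH, fell by 0.81 in APC cells (adjusted p = 6.59e-06), with arrays at 8.14, 8.10, 8.31 and 8.18 against 8.97, 8.63, 9.20 and 9.15 in siGFP cells. The difference was -0.68 from A and B and -0.93 from C and D.

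The PARP list of 17 genes holds the NAD-consuming ADP-ribosyltransferases and PARG, the glycohydrolase that removes poly-ADP-ribose. It gave 2 higher and 6 lower in siTAZ cells, 7 higher and 2 lower in sibcat cells, and 7 higher and 1 lower in APC cells. The 2 lower in sibcat cells were PARP1 and PARG, the second at -0.41 (limma, adjusted p = 0.00353) and named after its values were seen. PARP14, a mono-ADP-ribosyltransferase, read 8.11, 8.09, 8.05 and 8.06 in sibcat cells and 8.05, 8.17, 8.14 and 8.12 in APC cells, against 7.30, 7.13, 7.21 and 7.19 in siGFP cells. It rose by 0.87 (SE 0.047, limma, adjusted p = 2.43e-10) in sibcat and by 0.91 (1.01e-10) in APC cells, while APC minus sibcat was 0.04 (adjusted p = 0.530). Its other probe set was dim in all groups, at 0.09 in sibcat and 0.04 in APC cells, and the mean of both gave 0.48 and 0.47. PARP9, the partner of the ubiquitin ligase DTX3L, rose by 0.94 in APC (limma, adjusted p = 9.81e-08) and by 0.84 in sibcat cells (3.56e-07). Its second probe set gave 0.40 in APC cells and 0.20, not called, in sibcat cells. PARP4, the vault-associated member, rose by 0.84 in sibcat cells (4.88e-08), and TIPARP, a target of the aryl hydrocarbon receptor, rose by 0.82 in APC cells (4.65e-10).

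The tankyrases TNKS and TNKS2 promote destruction of AXIN and so bear on Wnt signalling. TNKS fell by 0.63 in siTAZ cells (limma, adjusted p = 4.68e-06), and its differences in sibcat and APC cells, -0.06 and -0.10, did not pass. Its 3 other probe sets were dim, and the mean of all 4 gave -0.19 in siTAZ cells (adjusted p = 0.00337). TNKS2 differed by 0.26 in siTAZ, 0.13 in sibcat and -0.02 in APC cells, none past the threshold. The siTAZ value passed with A, B against C, D as a block (limma, adjusted p = 0.0177). With the ACTB 3' minus 5' value as a covariate it was 0.48 and passed (limma, adjusted p = 0.0101). From A and B alone it was 0.39 and also passed (adjusted p = 0.0412). Without _x_at and _s_at probe sets, which leaves a dim one, it was -0.0025. On 222562_s_at and 222563_s_at, which were not dim, TNKS2 differed by -0.025 and -0.10 in siTAZ cells. The mean of all its probe sets gave 0.033 there (adjusted p = 0.790). PARP1, the main DNA-damage polymerase, was lower in sibcat cells, at -0.35 (limma, adjusted p = 2.75e-05), beside -0.06 in siTAZ and 0.00 in APC cells.

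Of the 7 sirtuins, the NAD-dependent deacylases, 1 rose and 3 fell in siTAZ cells, 3 rose and 1 fell in sibcat cells, and 1 rose in APC cells. SIRT1 read 6.12, 5.66, 6.07 and 6.19 in siTAZ cells and 6.14, 6.49, 6.48 and 6.34 in sibcat cells. It read 7.20, 7.30, 7.74 and 7.67 in APC cells, against 7.54, 7.50, 7.79 and 7.64 in siGFP cells. Both siRNA groups stood below all other arrays. SIRT1 fell by 1.61 in siTAZ cells (SE 0.133, limma, adjusted p = 8.28e-08) and by 1.26 in sibcat cells (8.40e-07), against -0.14 in APC cells (0.478). The siTAZ and sibcat arrays overlapped, and siTAZ minus sibcat was -0.35, close to the threshold (adjusted p = 0.0473) and with no alternative run. APC minus sibcat was 1.12 (2.32e-06). SIRT1 has a single probe set here, with the suffix _s_at. SIRT4, a mitochondrial member, rose by 0.71 in siTAZ (limma, adjusted p = 3.09e-04) and 0.88 in sibcat cells (2.63e-05), and its other probe set rose too. In siGFP cells these probe sets averaged 4.85 and 4.57, below the median probe set level.

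Of 8 hydrolases and nucleotide-breakdown genes, 1 rose and 1 fell in siTAZ cells, 1 rose and 1 fell in sibcat cells, and 4 rose and 1 fell in APC cells. NT5E, the cell-surface 5'-nucleotidase CD73, moved in opposite directions after the 2 siRNAs. Its brightest probe set read 9.02, 9.05, 9.01 and 9.12 in siTAZ cells and 11.43, 11.44, 11.46 and 11.55 in sibcat cells, against 9.94, 9.89, 10.06 and 10.02 in siGFP cells. It fell by 0.93 in siTAZ cells (limma, adjusted p = 1.52e-09) and rose by 1.49 in sibcat cells (2.04e-12), and siTAZ minus sibcat was -2.42 (4.64e-15). One of its 3 other probe sets, 1553994_at, did not pass in siTAZ cells, and in APC cells the probe sets disagreed in sign. ENPP1, a pyrophosphatase that can cleave extracellular NAD, rose by 0.68 in APC cells (5.79e-04), but averaged 5.25 there against 4.57 in siGFP cells. That call was lost once probe sets ending in _x_at or _s_at were left out, at 0.24 (limma, adjusted p = 0.147). ENPP1 then rested on the dim 228952_at, which averaged 3.86 in APC and 3.62 in siGFP cells.

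The list of methyl donor supply and methylnicotinamide oxidation holds 10 genes, among them GNMT, which uses S-adenosylmethionine, and AOX1, which oxidises the product of NNMT; neither passed in any comparison. Of the 10, 1 rose and 2 fell in siTAZ cells, 2 rose and 2 fell in sibcat cells, and 2 rose and 2 fell in APC cells. MAT2B, the regulatory subunit of the enzyme that makes S-adenosylmethionine, read 8.94, 8.89, 9.06 and 8.95 in siTAZ cells against 11.27, 11.30, 11.37 and 11.47 in siGFP cells. It fell by 2.39 there (SE 0.054, limma, adjusted p = 9.93e-15), or 5.25-fold, and by 0.38 in sibcat cells (2.77e-05). Its second probe set was dim and differed by -0.28 in siTAZ cells, and the mean of both gave -1.33 there. AHCY, which clears the S-adenosylhomocysteine that methyltransferases release, rose by 0.42 in APC cells (limma, adjusted p = 2.67e-06). It fell by 0.535 in sibcat cells (1.24e-07), where NNMT differed by 0.03, and was not called in siTAZ cells, at -0.02. MTR, methionine synthase, fell by 0.50 in APC cells (1.26e-05). AHCY and MTR were named after their values were seen, and a link to NNMT was not tested.

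Among the treated groups themselves, 34 of the 66 related genes differed between siTAZ and sibcat cells, or 51.5%, beside 36.7% of all genes. Between APC and sibcat cells 30 differed, or 45.5%, beside 42.0% of all genes, and between siTAZ and APC cells 36 differed, or 54.5%, beside 42.4%.

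**Figure D4:**
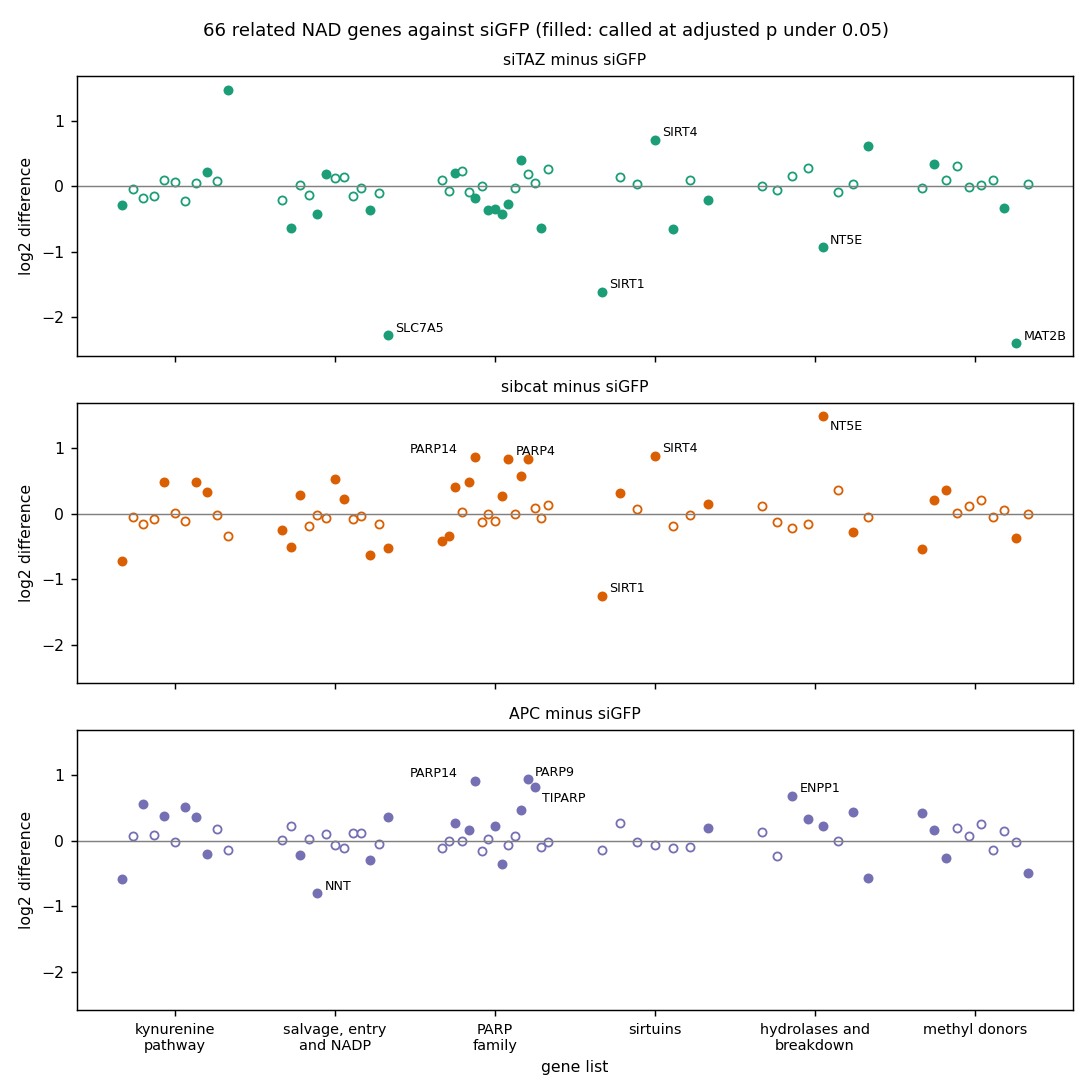
Log2 difference from siGFP (vertical axis) of the 66 related genes, by list along the horizontal axis, in siTAZ, sibcat and APC cells; each point is a gene by its brightest probe set, filled where called, and the 5 named genes of each comparison are labelled. MAT2B, SLC7A5 and SIRT1 lie lowest in siTAZ cells, SIRT1 lowest and NT5E highest in sibcat cells, and PARP9, PARP14 and TIPARP highest in APC cells.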

How the data were processed

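Total RNA was hybridised to Affymetrix arrays, and the deposited values are log2 levels that the authors made with RMA, per the submitters' processing notes; its version and the annotation used are not given in the sources used here. The table holds 54675 probe sets and 16 arrays, with array medians of 5.06 to 5.12, and no further scaling was done. Probe sets were named through GEO's platform annotation, updated through gene IDs: 41097 had 1 gene, 1801 several and 11777 none.

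All 4 groups were fitted together in limma 3.58.1 (R 4.3.3, lmFit and eBayes) over all probe sets, and over 19775 genes each by its brightest probe set across the 16 arrays. A call is a Benjamini-Hochberg adjusted p under 0.05 over the whole table. Dim probe sets were kept, so all 24 probe sets of the 8 genes entered. On data simulated for the APC against siGFP comparison over 19775 genes, the fit called 98 of 100 genes changed by 1 log2 unit, 77 of 100 changed by 0.5 and 10 unchanged genes. The simulated noise was normal and independent between arrays, and few genes were changed. On the real arrays A and B tended to deviate together, as did C and D. There 16.6% of all genes were called higher in APC cells and 17.1% lower, so the simulated figures need not hold for them. The number of arrays limits the precision, and since separate cultures are not stated, p-values measure the spread between these samples.

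The 8 genes, the related lists and the rules were chosen with earlier results of these data known. Named were all 8 genes, the siRNA and vector targets, per comparison the 5 called related genes with the largest difference and a mean above the median level in at least 1 group, TNKS, TNKS2, PARP1 and SIRT1, and the 6 genes nearest to QPRT. The alternatives tried blocked on the replicate letter or on the split into A, B and C, D, used each of those pairs of letters alone, left out each array, averaged a gene's probe sets, left out probe sets ending in _x_at or _s_at or dim ones, centred arrays on their medians, let the variance follow the mean, or took the ACTB 3' minus 5' value as a covariate. Figures were drawn with matplotlib.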

Additional observations from a re-analysis of the deposited data

Results flagged for a closer look

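Some arrays stood apart within their group of 4 by Dixon's test, which chance alone gives in about 1 in 20 groups: this held for 9 of 96 groups of the 8 genes' probe sets and for 2 of 56 groups of the related genes named. For QPRT on 204044_at, APC replicate A read 5.43, above the 5.0 to 5.05 of the other APC arrays. For NNMT on 202238_s_at, APC replicate A read 6.01 and siGFP replicate A read 4.26. For NAMPT on 217739_s_at, sibcat replicate C read 11.52. For NADSYN1, siGFP replicate B read 6.92 on 232946_s_at and APC replicate D read 3.51 on the dim 1565908_at. The other flags of the 8 genes fell on dim probe sets: on NAPRT 226708_at sibcat replicate C read 4.18 and siGFP replicate D read 4.77, and on NMNAT2 1562818_at APC replicate D read 4.29. Among related genes, PARP9 read 7.20 in sibcat replicate D and TIPARP read 10.93 in siTAZ replicate C.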

How the results depend on the processing

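QPRT kept its direction in all 26 alternatives of each comparison, between 0.66 and 0.85 in siTAZ, 0.83 and 0.95 in sibcat and -3.21 and -2.98 in APC cells. The replicate letters could not be taken to pair the samples. Of 24 same-letter pairs of arrays, 22 had deviations correlated above 0.1 (lowest 0.08, median 0.15). Pairs of other letters within A, B or within C, D had a median correlation of 0.16, no lower than that. Pairs across the split had a median of -0.16. Only 9 of 16 arrays were closest to their own letter. The main fit did not block on the split. With the replicate block the QPRT differences were necessarily those of the main fit, 0.81, 0.90 and -3.10 in siTAZ, sibcat and APC cells. No count of calls moved by over 1.5 times with that block. From A and B alone, fewer arrays gave 16 related calls in siTAZ and 14 in APC cells, in place of 25 and 28, and 4 and 5 probe sets of the 8 genes in siTAZ and sibcat cells, in place of 7 and 8. Without probe sets ending in _x_at or _s_at, 18 related genes were called in sibcat and 17 in APC cells, in place of 30 and 28. NADSYN1 then rested on a dim probe set and differed by -0.15, -0.17 and -0.36 in siTAZ, sibcat and APC cells. Signs also turned for differences that had passed no threshold. TNKS was 0.00 in sibcat and 0.01 in APC cells from A and B. TNKS2 in APC cells was 0.10 from A and B, 0.073 as the mean of probe sets, 0.16 without _x_at and _s_at probe sets and -0.14 to 0.084 with 1 array left out; it was -0.065 in sibcat cells from C and D and -0.0025 in siTAZ cells without _x_at and _s_at probe sets. PARP1 in APC cells was 0.01 from C and D, 0.0013 with the ACTB covariate and -0.018 to 0.015 with 1 array left out. TNKS2 in siTAZ cells passed the threshold under 5 alternatives, with the replicate block among them (limma, adjusted p = 0.0174). For these the cause was not tested. Signals near the median probe set level limit what can be read from NNMT and SIRT4 in siGFP cells and QPRT and NMNAT2 in APC cells.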
